A study of Mus musculus with 14 samples.

Results

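Dppa2, Dppa4, Dppa5a, Utf1, L1td1, Lin28a, Fbxo15 and Tcl1 are 8 genes used as markers of mouse pluripotent stem cells. They were taken by symbol from a table of 13180 genes, all 8 were present, and each is described in all 4 RNA libraries of the series. The libraries hold polyadenylated RNA from a mouse embryonic stem cell line that carries a green fluorescent protein (GFP) reporter of Oct4, the product of Pou5f1, and from cells derived from it. DR-ESC are reporter-positive cells that were sorted out of a neural differentiation culture at day 8 and then grown further in stem cell medium. NPC(GFP-) are the reporter-negative neural progenitors of that day 8 culture. Oct4-GFP-H-ESC are cells of the line sorted for a high reporter signal, and Oct4-GFP-ESC is the unsorted line. The line was kept in serum with 10 ng/ml of the cytokine LIF over fibroblast feeders treated with mitomycin C. All 4 populations carry the reporter, and whether feeders and LIF were also used for DR-ESC, and for how long they were grown, is not given in the sources used here. Each population has 1 library. No difference below therefore has a replicate check, no p-value or error is given, and a gene is called higher or lower only by size, at 2-fold or more in FPKM + 1, which is a log2 ratio of at least 1 or at most -1.

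The marker genes act at different steps. DPPA2 and DPPA4 are chromatin proteins that work as a pair, keep developmental promoters free of DNA methylation and switch on genes of the 2-cell-like state. UTF1 is a chromatin protein that limits Polycomb binding, L1TD1, LIN28A and DPPA5A bind RNA, FBXO15 is the substrate-binding subunit of a ubiquitin ligase, and TCL1 is a co-activator of the kinase AKT. Genes of this kind are high in embryonic stem cells, and their RNA is usually lost when the cells become neural, with LIN28A kept for longer in early neural progenitors.

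Promoter sequence was at hand for 4 of the 8 genes, in RefSeq windows of GRCm38.p6 that run from 250 bases before an annotated transcript start to 50 bases after it. For Utf1, L1td1 and Tcl1 that start is the outer limit of the gene, and for Lin28a it lies 380 bases inside it, at 134018816, so the Lin28a window lies within the gene's limits. They are shown because they set 3 genes with at most 3.78 FPKM in NPC(GFP-) beside Lin28a, which kept 37.9 FPKM there. The windows are chr7:139943606-139943905 for Utf1 (plus strand), chr4:98726504-98726803 for L1td1 (plus strand), chr12:105222688-105222987 for Tcl1 (minus strand) and chr4:134018767-134019066 for Lin28a (minus strand). Capitals mark the GC box GGGCGG on either strand, read as CCGCCC where it lies on the other strand.
Utf1: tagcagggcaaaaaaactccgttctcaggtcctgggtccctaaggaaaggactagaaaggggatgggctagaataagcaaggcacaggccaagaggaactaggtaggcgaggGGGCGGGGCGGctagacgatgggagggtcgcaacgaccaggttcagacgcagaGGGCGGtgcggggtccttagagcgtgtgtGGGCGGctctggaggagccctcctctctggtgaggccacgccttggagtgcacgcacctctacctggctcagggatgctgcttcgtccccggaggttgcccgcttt
L1td1: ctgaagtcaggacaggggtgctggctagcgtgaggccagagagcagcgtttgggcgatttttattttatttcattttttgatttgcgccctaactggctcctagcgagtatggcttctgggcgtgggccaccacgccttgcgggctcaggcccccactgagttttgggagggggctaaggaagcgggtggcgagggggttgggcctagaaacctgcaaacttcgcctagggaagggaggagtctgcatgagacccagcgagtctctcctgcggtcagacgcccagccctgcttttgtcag
Tcl1: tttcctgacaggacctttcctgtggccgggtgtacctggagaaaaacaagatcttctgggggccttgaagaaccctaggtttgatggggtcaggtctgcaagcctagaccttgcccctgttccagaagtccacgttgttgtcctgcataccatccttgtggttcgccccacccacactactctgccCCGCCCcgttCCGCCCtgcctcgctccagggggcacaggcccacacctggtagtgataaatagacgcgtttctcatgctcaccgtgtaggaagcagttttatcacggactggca
Lin28a: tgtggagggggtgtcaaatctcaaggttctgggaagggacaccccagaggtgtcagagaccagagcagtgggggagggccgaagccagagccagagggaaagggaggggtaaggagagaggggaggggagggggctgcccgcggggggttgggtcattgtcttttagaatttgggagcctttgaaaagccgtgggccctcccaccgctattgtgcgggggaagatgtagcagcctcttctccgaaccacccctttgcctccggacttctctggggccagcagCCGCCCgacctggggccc
The Utf1 window holds 4 GC boxes, of which the first 2 overlap by 1 base, the Tcl1 window 2, the Lin28a window 1 and the L1td1 window 0. GGGCGG occurred in 35.7% of 32851 RefSeq promoter windows of the same length. Of 5 further motifs searched on both strands, CATTGT (a SOX-type core) was found in the Lin28a window only, without overlap with its GC box, against 12.6% of all windows. The octamer ATTTGCAT, held by 1.74% of all windows, and the TATA box TATAAA, held by 13.6%, were in none of the 4. The same was true of the CCAAT box, spelled CCAAT and held by 37.4% of all windows, and of the E-box CACGTG, held by 7.15%. The windows hold 17 (Utf1), 14 (L1td1), 11 (Tcl1) and 10 (Lin28a) CpG dinucleotides, against a median of 7 over all windows. Fewer were held by 68.6, 63.7, 58.6 and 56.5% of all windows, so none of these counts is extreme. A match or its absence describes these letters alone.

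The libraries were first checked against their labels. Pou5f1 had 609 FPKM in DR-ESC, 0.276 in NPC(GFP-), 1037 in Oct4-GFP-H-ESC and 1881 in Oct4-GFP-ESC, where FPKM are fragment numbers scaled by transcript length and library size. As deposited, its level was lower in the sorted than in the unsorted line (log2 ratio -0.86). The FPKM sums of these libraries also differed, at 398522, 345804, 437605 and 687303 in the same order. Nanog, a core pluripotency factor, had 145, 0.0918, 148 and 129 FPKM in the same order. Sox2, which stem cells and neural progenitors share, had 155, 103, 147 and 232 FPKM. The 12 neural progenitor markers summed to 72.0 FPKM in DR-ESC, 634 in NPC(GFP-), 18.4 in Oct4-GFP-H-ESC and 24.4 in Oct4-GFP-ESC, and 9, 12, 4 and 5 of them reached 1 FPKM, with Dbx1 listed at 0 in Oct4-GFP-H-ESC. The 14 fibroblast markers in the table summed to 252 FPKM in DR-ESC, 699.9 in NPC(GFP-), 970.3 in Oct4-GFP-H-ESC and 1114 in Oct4-GFP-ESC, and S100a4 was listed at 0 in DR-ESC and NPC(GFP-). Vim and Fn1, which neural and stem cells also express, held most of that sum in DR-ESC and NPC(GFP-), and 7 of the 14 reached 1 FPKM in each of these libraries, against all 14 in each of the other two. Of 8 blood markers 2 were in the table, and Lyz2 was listed at 0 in DR-ESC and NPC(GFP-). In such bulk libraries fewer cells of a type and less RNA per cell cannot be told apart.

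All 8 genes were well expressed in the 3 stem cell libraries and lower in NPC(GFP-). Their levels ran over 15.4 to 624 FPKM in DR-ESC, 0 to 37.9 in NPC(GFP-), 10.8 to 423 in Oct4-GFP-H-ESC and 24.7 to 734 in Oct4-GFP-ESC. Together they made up 0.320% of the FPKM sum in DR-ESC, 0.0134% in NPC(GFP-), 0.295% in Oct4-GFP-H-ESC and 0.285% in Oct4-GFP-ESC. Dppa5a was the highest of the 8 and Tcl1 the lowest in each stem cell library. The order between them was less fixed: Lin28a was above L1td1 in DR-ESC, and below it in Oct4-GFP-H-ESC and Oct4-GFP-ESC.

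**Figure D1:**
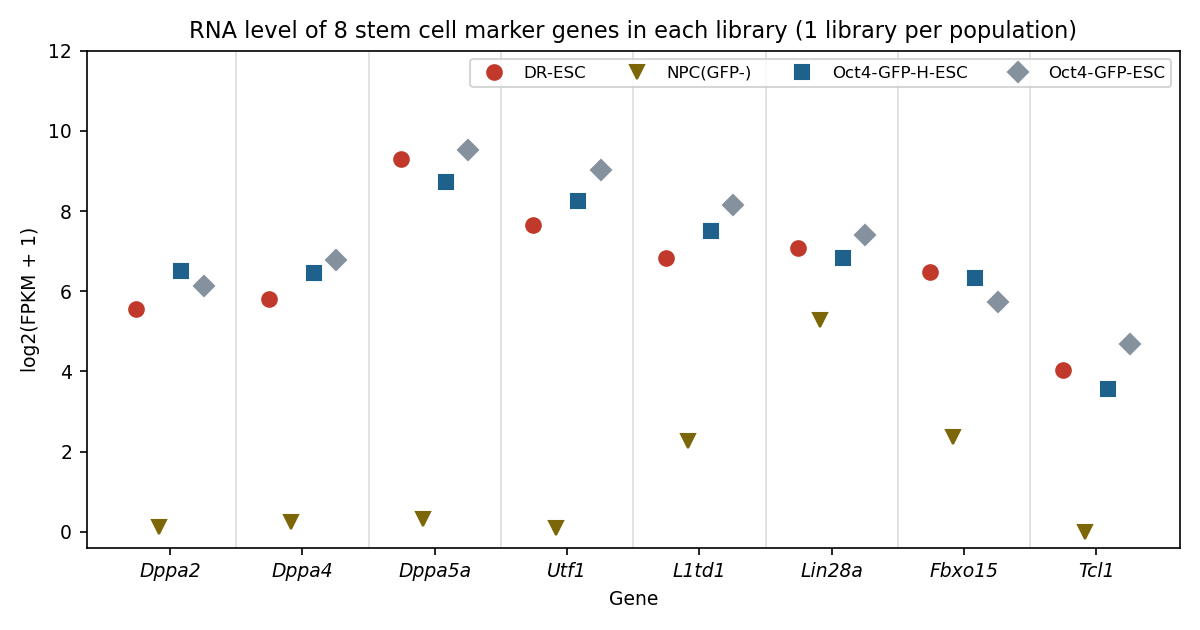
RNA level of each marker gene (x axis) as log2(FPKM + 1) (y axis), with 1 point per library, so there are no error bars. In NPC(GFP-) Lin28a stands at 37.9 FPKM, L1td1 and Fbxo15 stand at 3.78 and 4.17 FPKM, and the other 5 genes lie below 0.25 FPKM, while the 3 stem cell libraries lie between 10.8 and 734 FPKM.

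The lower level in the neural progenitors came in 3 sizes. Dppa5a, Utf1, Dppa4 and Dppa2 were below 1 FPKM in NPC(GFP-), at 0.246, 0.0738, 0.180 and 0.0810 FPKM, and Tcl1 was listed at 0. L1td1 and Fbxo15 kept 3.78 and 4.17 FPKM, or 3.38 and 7.95% of their lowest stem cell level. Lin28a kept 37.9 FPKM, 33.3% of its lowest stem cell level, and ranked above 87.3% of all genes in NPC(GFP-). Against Oct4-GFP-H-ESC, all 8 genes were lower in NPC(GFP-), where 16.2% of 12864 genes were lower and 18.5% higher (11.7 and 25.2% with equal sums). Only 3 of the 8 reached 1 FPKM in NPC(GFP-). The others are in the table only through the stem cell libraries, so the count is a description. The log2 ratios were -8.41 for Dppa5a, -8.16 for Utf1, -6.39 for Dppa2, -6.23 for Dppa4, -5.24 for L1td1, -3.97 for Fbxo15 and -1.56 for Lin28a. For the 4 genes below 0.25 FPKM in NPC(GFP-) the size of the ratio and its order depend on the pseudocount: Dppa2 was at -8.95 with 0.1 and -4.22 with 5, and with 0.1 Utf1 (-10.78) passed Dppa5a (-10.26). No ratio is given for Tcl1, which had 10.8 FPKM in Oct4-GFP-H-ESC. The median over the 7 genes above 0 was -6.23, and 0.03 over all genes. In this comparison 0.0155% of genes had a lower ratio than Dppa5a, and 7.83% a lower one than Lin28a.

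DR-ESC differed from NPC(GFP-) in the same way, and the NPC(GFP-) library is shared by both comparisons. All 8 genes were higher in DR-ESC, where 11.6% of 12649 genes were higher, and this count too is a description. The log2 ratio was 8.97 for Dppa5a, 7.54 for Utf1, 5.58 for Dppa4 and 5.45 for Dppa2. It was 4.56 for L1td1, 4.10 for Fbxo15 and 1.80 for Lin28a. The first 4 again depend on the pseudocount, with Dppa4 at 7.63 with 0.1 and 3.54 with 5. Tcl1 had 15.4 FPKM in DR-ESC and was listed at 0 in NPC(GFP-). The median over the 7 genes above 0 was 5.45, against -0.05 over all genes. These calls held with other pseudocounts and scalings, and a change of the minimum level could not alter them.

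**Figure D2:**
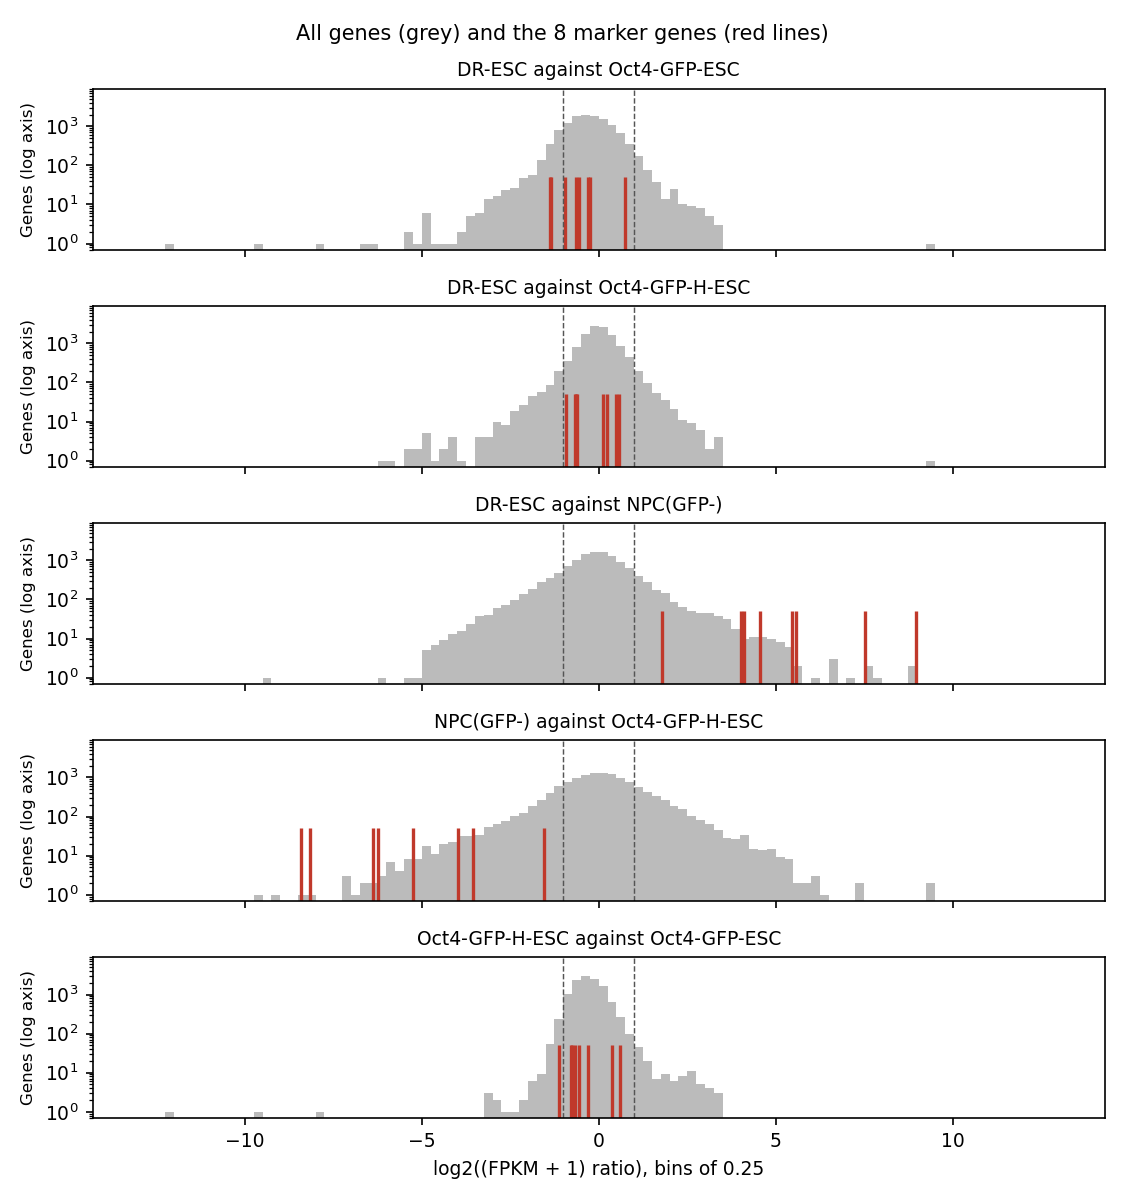
Number of genes (y axis, log scale) by log2((FPKM + 1) ratio) (x axis) for each comparison, with the 8 marker genes as red lines and the 2-fold size as dashed lines. The red lines lie between 1.80 and 8.97 for DR-ESC against NPC(GFP-) and between -8.41 and -1.56 for NPC(GFP-) relative to Oct4-GFP-H-ESC, and between -1.38 and 0.73 in the other 3 panels, where 3 lines pass the dashed line at -1 (Utf1 and L1td1 in DR-ESC relative to Oct4-GFP-ESC, Tcl1 in Oct4-GFP-H-ESC relative to Oct4-GFP-ESC). The line of Tcl1 in the panels with NPC(GFP-) is set by the pseudocount, since it is listed at 0 there.

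Between DR-ESC and the unsorted line the 8 genes did not move together. Utf1 and L1td1 were lower in DR-ESC at the 2-fold size, 6 genes lay within it and 0 were higher, where 12.2% of 12260 genes were lower and 2.95% higher. The median log2 ratio was -0.61 for the 8 genes and -0.29 for all genes. Abundant genes had lower ratios as a whole in this comparison, with a median of -0.88 over the 1226 most abundant and -0.03 over the 1226 least abundant. With ratios centred on the median of expressed genes, equal FPKM sums, or this abundance trend removed, 0 of the 8 genes were lower and 1, Fbxo15, was higher. The share of all genes called higher and lower was then 9.05 and 3.45%, 15.3 and 2.17%, and 4.62 and 4.60%. The median of the 8 genes was -0.19, 0.15 and -0.06, where the median of all genes was 0.13, 0.39 and 0.00. The sum of fibroblast markers also differed between these libraries, at 252 FPKM in DR-ESC against 1114 FPKM in Oct4-GFP-ESC. Fn1 (184 FPKM) and Vim (52.0 FPKM) held most of the DR-ESC sum, which therefore understates the difference of the other markers. The median log2 ratio of the 14 fibroblast markers was -2.91, and Col1a1 had 2.03 against 92.4 FPKM. Their part in the levels of the 8 marker genes was not tested.

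Against the sorted Oct4-GFP-H-ESC library, where the median over all genes was 0.00, no marker gene passed the 2-fold size in either direction. The background was 3.65% of 12128 genes higher and 3.91% lower, and 4.72 and 3.19% with equal sums. Dppa2, Dppa4, Utf1 and L1td1 had negative log2 ratios, of -0.94, -0.65, -0.62 and -0.68. Dppa5a, Lin28a, Fbxo15 and Tcl1 had positive ones, of 0.56, 0.24, 0.13 and 0.48. This split of 4 and 4 was the same under the 3 other scalings. The fibroblast markers summed to 252 FPKM in DR-ESC, mostly Fn1 and Vim, against 970.3 FPKM in Oct4-GFP-H-ESC. The median log2 ratio of the 14 fibroblast markers was -2.54, and their part in the ratios of the 8 marker genes was not tested.

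In Oct4-GFP-H-ESC relative to Oct4-GFP-ESC only Tcl1 passed the 2-fold size, as lower, where 2.67% of 12003 genes were lower and 0.983% higher. The median log2 ratio was -0.61 over the 8 genes and -0.31 over all genes. With ratios centred on the median, equal sums, or the abundance trend removed, Tcl1 was inside the 2-fold size, at -0.73, -0.51 and -0.78. Fbxo15 was then called higher, at 1.00, 1.25 and 1.18. The share of all genes called higher and lower was 2.91 and 0.317%, 4.29 and 0.183%, and 1.76 and 0.558%, with medians of 0.09, 0.24 and 0.00.

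**Figure D3:**
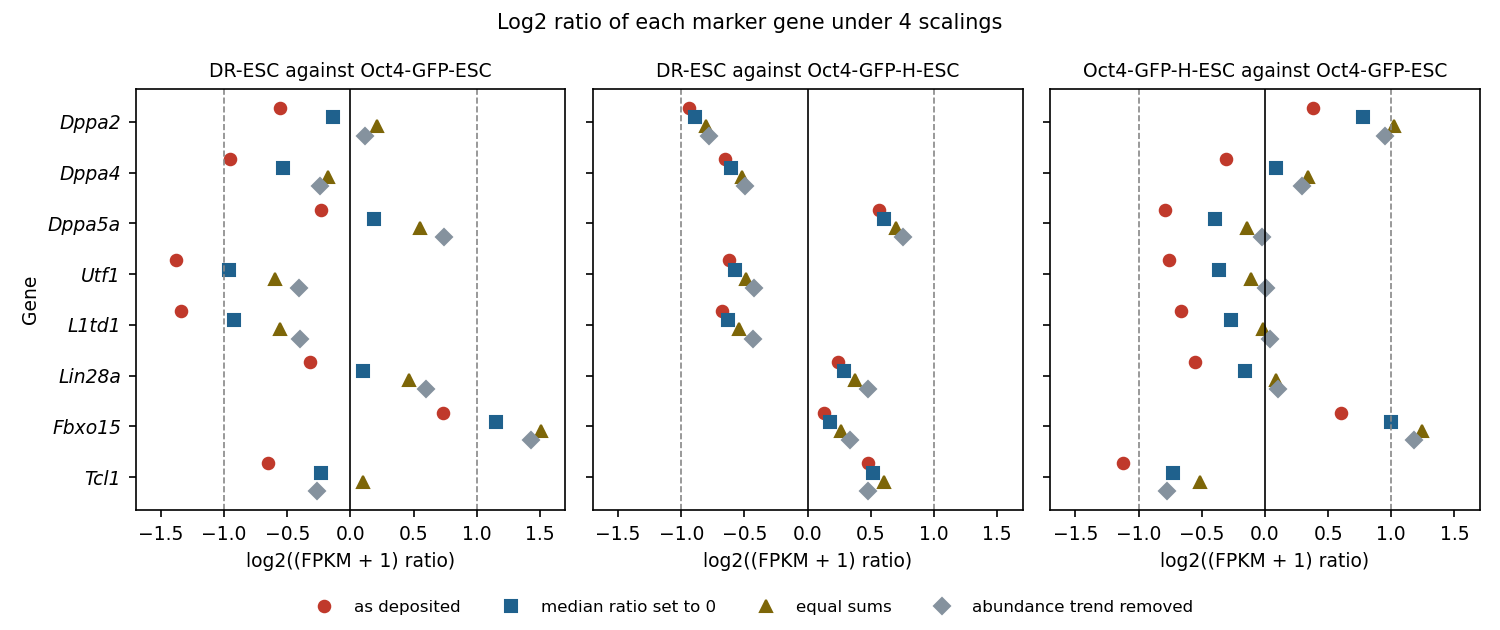
Log2((FPKM + 1) ratio) (x axis) of each marker gene (y axis) in the 3 comparisons among stem cell libraries, with values as deposited and under 3 other scalings as 4 kinds of points, and the 2-fold size as dashed lines. In DR-ESC relative to Oct4-GFP-ESC, Utf1 and L1td1 pass -1 as deposited, at -1.38 and -1.34, and Fbxo15 passes 1 under each of the 3 other scalings, at 1.15 to 1.51.

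Dppa2 and Dppa4 are neighbours on chromosome 16 (Dppa4 at 48283735 to 48294292, Dppa2 at 48310274 to 48319513), with 15981 bases and no other annotated gene between them. Dppa2 had 46.3 FPKM in DR-ESC, 0.0810 in NPC(GFP-), 89.7 in Oct4-GFP-H-ESC and 68.8 in Oct4-GFP-ESC. Dppa4 had 55.3, 0.180, 87.5 and 108 FPKM in the same order. Both were lowest among the stem cell libraries in DR-ESC, and they differed in which of the other two was higher. The ratio of Dppa2 to Dppa4 was 0.837 in DR-ESC, against 1.03 in Oct4-GFP-H-ESC and 0.635 in Oct4-GFP-ESC. By rank, which no scaling of a library changes, Dppa2 was 1349th of 13180 genes in DR-ESC, against 747th in Oct4-GFP-H-ESC and 1437th in Oct4-GFP-ESC. Dppa4 was 1093rd, 766th and 923rd. The log2 ratio of Dppa2 in DR-ESC relative to Oct4-GFP-ESC, -0.56 as deposited, was 0.21 with equal sums and 0.11 with the trend removed.

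Of 23 listed genes of the 2-cell-like state, which DPPA2 and DPPA4 are known to activate in mouse embryonic stem cells, 12 were in the table. Every gene of the table exceeds 1 FPKM in some library, and 9 of these 12 did so in DR-ESC and Oct4-GFP-H-ESC alone, so they are present because they are high there and no count of them supports a difference from Oct4-GFP-ESC. As a description, the levels of the 12 genes ran over 1.77 to 37.8 FPKM in DR-ESC, 0 to 0.0433 in NPC(GFP-), 1.69 to 35.8 in Oct4-GFP-H-ESC and 0.200 to 3.10 in Oct4-GFP-ESC. Between DR-ESC and Oct4-GFP-H-ESC all 12 lay inside the 2-fold size (median log2 ratio 0.07), also under the 3 other scalings. Dux, a transcription factor at the head of this programme, had 2.58 FPKM in DR-ESC, 0 in NPC(GFP-), 2.01 in Oct4-GFP-H-ESC and 0.200 in Oct4-GFP-ESC. Zscan4c had 36.4, 0.0170, 34.6 and 2.59 FPKM, and Zscan4f 37.8, 0.0433, 35.8 and 3.10 FPKM. Reads may be shared among the near-identical Zscan4 copies, so the level of each is uncertain. Dppa2 and Dppa4 themselves were inside the 2-fold size in both comparisons with Oct4-GFP-ESC, apart from Dppa2 in Oct4-GFP-H-ESC with equal sums (1.02).

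The genes nearest to each marker were found among 8939 genes with at least 5 FPKM in a library. By the form of their symbols, predicted genes, Rik and other clone names, small RNA genes and merged symbols were left out beforehand. Nearness was the root mean square difference of log2(FPKM + 1) over the 4 libraries, each gene centred on its own mean. Over so few libraries likeness is a description only. It also depends on the pseudocount of 1, so near genes may keep unlike shares of their level in NPC(GFP-). Dppa4 was the nearest gene to Dppa2 (0.25), followed by Fgf4 (0.28) and Rbmxl2 (0.32). Nearest to Dppa4 were Rbmxl2 (0.13), Esrrb (0.18) and Dppa2.

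Dppa5a (chromosome 9, 78367052 to 78368199), also known as Esg1, encodes a small RNA-binding protein with a KH domain. It had 624 FPKM in DR-ESC, 0.246 in NPC(GFP-), 423 in Oct4-GFP-H-ESC and 734 in Oct4-GFP-ESC. It was the highest of the 8 genes and held 49.0% of their FPKM sum in DR-ESC, against 32.8% in Oct4-GFP-H-ESC and 37.5% in Oct4-GFP-ESC. By rank it was 99th in DR-ESC and 137th in each of the other stem cell libraries. The log2 ratio in DR-ESC was -0.23 against Oct4-GFP-ESC, but 0.55 with equal sums and 0.74 with the trend removed, and 0.56 against Oct4-GFP-H-ESC. RefSeq also lists Dppa5b and Dppa5c, by name possible copies, so reads of Dppa5a may be shared with them, which was not checked. Utf1 (0.55), Tdgf1 (0.62) and Pou5f1 (0.66) were nearest to it, all at larger distances than the neighbours of the other genes apart from Utf1.

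Utf1 (chromosome 7, 139943856 to 139945112), whose promoter window holds the 4 GC boxes, had 199 FPKM in DR-ESC, 0.0738 in NPC(GFP-), 306 in Oct4-GFP-H-ESC and 519 in Oct4-GFP-ESC. DR-ESC was the lowest stem cell library, at 38.3% of Oct4-GFP-ESC and 64.8% of Oct4-GFP-H-ESC. Its log2 ratio of -1.38 against Oct4-GFP-ESC was called lower, and became -0.96 with ratios centred on the median, -0.60 with equal sums and -0.40 with the trend removed. By rank Utf1 was 252nd in DR-ESC, against 184th in Oct4-GFP-H-ESC and 179th in Oct4-GFP-ESC. The ratio of Dppa5a to Utf1, which is free of library scaling, was 3.14 in DR-ESC, against 1.38 in Oct4-GFP-H-ESC and 1.41 in Oct4-GFP-ESC. Nearest to Utf1 were Tdgf1 (0.33), Dppa5a and Pou5f1 (0.65).

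UTF1 limits the loading of Polycomb repressive complex 2, aids mRNA decapping and is linked to the Arf and Myc genes. In DR-ESC relative to Oct4-GFP-ESC 12.2% of all genes were lower and 2.95% higher (median -0.29). Of 15 genes of these partners, 3 were lower and 0 higher (median -0.41). They were Myc (5.78 FPKM in DR-ESC against 29.8), Mycn (31.9 against 95.0) and Eed, a core subunit of the complex (41.9 against 106). Under the other scalings Myc stayed lower, Mycn only with ratios centred on the median, and Eed in none. Ezh1 was called higher with equal sums only. The catalytic subunit gene Ezh2 had 55.4 FPKM in DR-ESC, 73.3 in NPC(GFP-), 61.1 in Oct4-GFP-H-ESC and 94.5 in Oct4-GFP-ESC, inside the 2-fold size. The decapping genes Dcp1a and Dcp2 lay between 10.4 and 11.5 FPKM in every library. In NPC(GFP-) relative to Oct4-GFP-H-ESC 4 were lower and 0 higher (median -0.37): Myc, Jarid2, Mtf2 and Eed, the last of them not with equal sums. The shares over all genes were 16.2% lower and 18.5% higher. Jarid2, a cofactor of the complex, had 22.1 FPKM in NPC(GFP-) against 93.0 in Oct4-GFP-H-ESC.

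L1td1 (chromosome 4, 98726754 to 98738486), an RNA-binding protein gene derived from a LINE-1 element, had 112 FPKM in DR-ESC, 3.78 in NPC(GFP-), 179.6 in Oct4-GFP-H-ESC and 285 in Oct4-GFP-ESC. As with Utf1, DR-ESC was the lowest stem cell library, at 39.4% of Oct4-GFP-ESC. The log2 ratio of -1.34 was called lower, and was -0.92, -0.56 and -0.40 under the 3 other scalings. By rank it was 482nd in DR-ESC, against 340th in Oct4-GFP-H-ESC and 350th in Oct4-GFP-ESC. Zscan10 (0.18), Nr0b1 (0.24) and Esrrb (0.24) were nearest to it, and all 3 encode transcription regulators of stem cells. In human embryonic stem cells L1TD1 is known to act with LIN28.

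Lin28a (chromosome 4, 134003330 to 134019196) blocks the maturation of let-7, a microRNA family of differentiated cells, and was the marker gene with the smallest range. It had 134 FPKM in DR-ESC, 37.9 in NPC(GFP-), 114 in Oct4-GFP-H-ESC and 168 in Oct4-GFP-ESC. The stem cell libraries spanned 1.47-fold. Its log2 ratio in DR-ESC relative to Oct4-GFP-ESC was -0.32 as deposited and 0.10, 0.46 and 0.60 under the other scalings, so its direction depends on the scaling. The ratio of Lin28a to L1td1 was 1.20 in DR-ESC, 10.02 in NPC(GFP-), 0.633 in Oct4-GFP-H-ESC and 0.589 in Oct4-GFP-ESC. Nearest to Lin28a were Ptpn3, As3mt and Ccdc28a (0.04 to 0.05), whose levels were 0.697 to 11.0 FPKM.

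The paralogue Lin28b stood apart from Lin28a, with 7.09 FPKM in DR-ESC, 9.20 in NPC(GFP-), 7.19 in Oct4-GFP-H-ESC and 7.65 in Oct4-GFP-ESC. The ratio of Lin28a to Lin28b was 19.0 in DR-ESC, 4.12 in NPC(GFP-), 15.8 in Oct4-GFP-H-ESC and 21.9 in Oct4-GFP-ESC. In DR-ESC relative to Oct4-GFP-ESC 12.2% of all genes were lower and 2.95% higher (median -0.29). Of 20 genes of the let-7 axis in the table (of 23 listed), 5 were lower and 0 higher (median -0.28). They were Myc, Mycn, Hmga1, Hmga2 and Cdk6, all known let-7 targets or relatives of one. Hmga1, a chromatin protein gene, had 630.0 FPKM in DR-ESC against 1372, and Hmga2 8.31 against 18.8. Of the 5, Myc and Mycn were lower with ratios centred on the median, and Myc alone with equal sums or the trend removed, while 1, 3 and 1 genes of the list were then higher. Under these scalings 9.05, 15.3 and 4.62% of all genes were higher and 3.45, 2.17 and 4.60% lower. In NPC(GFP-) relative to Oct4-GFP-H-ESC 5 of the 20 were higher and 3 lower (median 0.33): Ccnd2, Igf2bp2, Igf2bp3, Hmga2 and Arid3a were higher, and Myc, Trim71 and Hmga1 lower. Over all genes 18.5% were higher and 16.2% lower. With equal sums 7 were higher and 3 lower (median 0.63), and with the trend removed 4 and 2, without Arid3a and Hmga1. Ccnd2, a cyclin gene, had 90.8 FPKM in NPC(GFP-) against 15.0, and Trim71, itself a let-7 target, 18.3 against 71.7. The uridyl transferase gene Zcchc11, whose product works with LIN28A on let-7 precursors, had 22.9 FPKM in DR-ESC, 19.0 in NPC(GFP-), 12.3 in Oct4-GFP-H-ESC and 11.4 in Oct4-GFP-ESC, and it was higher in DR-ESC relative to Oct4-GFP-ESC under each of the 3 other scalings but not as deposited (0.94).

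Fbxo15 (chromosome 18, 84934552 to 84981476) was highest in DR-ESC, the only marker gene of which this was true as deposited. Under other scalings Dppa5a and Lin28a were also highest in DR-ESC, as was Tcl1 with equal sums, and by rank Dppa5a and Lin28a were too. It had 87.8 FPKM in DR-ESC, 4.17 in NPC(GFP-), 80.2 in Oct4-GFP-H-ESC and 52.4 in Oct4-GFP-ESC. DR-ESC and Oct4-GFP-H-ESC were close, with a log2 ratio of 0.13, and both stood above Oct4-GFP-ESC, by 0.73 and 0.60. Both ratios were inside the 2-fold size as deposited and past it under the 3 other scalings, at 1.15 to 1.51 and at 1.00 to 1.25. By rank Fbxo15 was 648th in DR-ESC, against 840th in Oct4-GFP-H-ESC and 1861st in Oct4-GFP-ESC. In DR-ESC relative to Oct4-GFP-ESC 94.0% of genes had a lower ratio, and in Oct4-GFP-H-ESC relative to Oct4-GFP-ESC 97.1%. Another annotated gene, Timm21, overlaps it, so part of its reads is uncertain. Nearest to Fbxo15 were Inpp5d (0.13) and the germ cell genes Ddx4 (0.16) and Mael (0.16). In NPC(GFP-), however, Inpp5d, Ddx4 and Mael had 0.0231, 0.164 and 0.0787 FPKM, against 4.17 for Fbxo15. The 8 germ cell markers in the table, Ddx4 among them, summed to 166 FPKM in DR-ESC, 0.711 in NPC(GFP-), 64.2 in Oct4-GFP-H-ESC and 109.8 in Oct4-GFP-ESC, and their part in the level of Fbxo15 was not tested.

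FBXO15 joins a ubiquitin ligase with SKP1, CUL1 and RBX1. Of 8 genes of this ligase and of related adaptors and substrates in the table (of 9 listed), 0 were higher or lower in DR-ESC relative to Oct4-GFP-ESC (median -0.41, against -0.29 for all genes). Among all genes 12.2% were lower and 2.95% higher. Skp1a had 139 FPKM in DR-ESC, 99.9 in NPC(GFP-), 120.2 in Oct4-GFP-H-ESC and 199.6 in Oct4-GFP-ESC. Cul1 had 32.5, 40.0, 24.9 and 41.5 FPKM, and Rbx1 36.6, 49.4, 36.9 and 67.1 FPKM. In NPC(GFP-) relative to Oct4-GFP-H-ESC 2 of 8 were lower, the drug transporter genes Abcb1b and Abcb1a, whose human product is a reported FBXO15 substrate. The shares over all genes were 16.2% lower and 18.5% higher. Abcb1b had 0.322 FPKM in NPC(GFP-) against 13.3 in Oct4-GFP-H-ESC.

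Tcl1 (chromosome 12, 105216753 to 105222737) was the lowest of the 8 genes. It had 15.4 FPKM in DR-ESC, 0 in NPC(GFP-), 10.8 in Oct4-GFP-H-ESC and 24.7 in Oct4-GFP-ESC. The stem cell libraries spanned 2.29-fold, with DR-ESC between the others. In Oct4-GFP-H-ESC relative to Oct4-GFP-ESC its log2 ratio was -1.13, where 1.20% of genes had a lower one, and -0.91 with a pseudocount of 5. Nearest to Tcl1 were the amino acid transporter gene Slc7a3 (0.08), the stem cell phosphatase gene Alpl (0.14) and Rpl39l (0.21). Alpl had 86.2 FPKM in DR-ESC, 5.15 in NPC(GFP-), 68.4 in Oct4-GFP-H-ESC and 121 in Oct4-GFP-ESC.

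Of 20 genes of the AKT pathway in the table (of 25 listed), 1 was higher and 1 lower in DR-ESC relative to Oct4-GFP-ESC (median 0.30, against -0.29 for all genes). Foxo3, a transcription factor that AKT inhibits, had 27.1 FPKM in DR-ESC against 10.9, and Eras, a stem cell member of the RAS family, 9.79 against 28.4. The count depends on the scaling, with 6 higher and 1 lower when ratios were centred on the median, 9 and 0 with equal sums, and 2 and 1 with the trend removed. As deposited, 2.95% of all genes were higher and 12.2% lower in this comparison. Under these scalings the shares of all genes were 9.05 and 3.45%, 15.3 and 2.17%, and 4.62 and 4.60%. In NPC(GFP-) relative to Oct4-GFP-H-ESC 5 of the 20 were higher and 3 lower (median 0.10), where 18.5% of all genes were higher and 16.2% lower. With equal sums 8 were higher and 3 lower (median 0.41), where 25.2% of all genes were higher and 11.7% lower (median 0.33). Akt1, which encodes the kinase itself, had 21.5 FPKM in DR-ESC, 69.0 in NPC(GFP-), 24.0 in Oct4-GFP-H-ESC and 39.3 in Oct4-GFP-ESC. Inpp5d, a lipid phosphatase gene and the nearest to Fbxo15 in pattern, had 18.6 FPKM in DR-ESC, 0.0231 in NPC(GFP-), 19.1 in Oct4-GFP-H-ESC and 11.9 in Oct4-GFP-ESC.

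Other stem cell genes were compared in the same way. Dppa2, Dppa4, Dppa5a, L1td1 and Fbxo15 belong to the embryonic stem cell associated transcripts, and of 7 further genes of that set 3 were lower and 0 higher in DR-ESC relative to Oct4-GFP-ESC (median -0.97). Among all genes 12.2% were lower and 2.95% higher. Dnmt3l, a cofactor of DNA methylation, had 54.6 FPKM in DR-ESC, 0.841 in NPC(GFP-), 277 in Oct4-GFP-H-ESC and 219.7 in Oct4-GFP-ESC. Eras and Khdc3, a gene of the oocyte complex of maternal proteins, were the other two, Khdc3 with 2.15 FPKM in DR-ESC against 5.80. Dnmt3l was lower under every scaling, and 2, 1 and 3 of the 7 genes were lower with ratios centred on the median, equal sums and the trend removed. With the trend removed 1 of the 7, Nanog, was called higher. Under these scalings 3.45, 2.17 and 4.60% of all genes were lower and 9.05, 15.3 and 4.62% higher. Of 20 further stem cell markers 9 were lower and 0 higher (median -0.79), where 12.2% of all genes were lower and 2.95% higher (median -0.29), and 4, 2 and 2 were lower under these 3 scalings, Tdh and Ooep under each. Tdh, the threonine dehydrogenase of mouse stem cells, had 53.4 FPKM in DR-ESC, 0.306 in NPC(GFP-), 184 in Oct4-GFP-H-ESC and 394 in Oct4-GFP-ESC, and Nr0b1 had 21.2, 0.398, 34.5 and 58.6 FPKM. Against Oct4-GFP-H-ESC 1 of the 20, the germline gene Dppa3, was higher in DR-ESC and 4 were lower (Tdh, Tdgf1, Zfp296 and Mybl2), where 3.65% of all genes were higher and 3.91% lower. Dppa3 and Tdh held under the 3 other scalings, while Mybl2 was lost in each, Zfp296 with equal sums and Tdgf1 with the trend removed, which left 3, 2 and 2 lower. Of the 7 genes 1, Dnmt3l, was lower under every scaling. In NPC(GFP-) relative to Oct4-GFP-H-ESC 7 of 7 and 19 of 20 were lower, with Sox2 as the gene inside the 2-fold size, where 16.2% of all genes were lower. In NPC(GFP-) 0 of the 7 and 8 of the 20 reached 1 FPKM. The rest are in the table only through stem cell libraries, so these counts are a description.

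**Figure D4:**
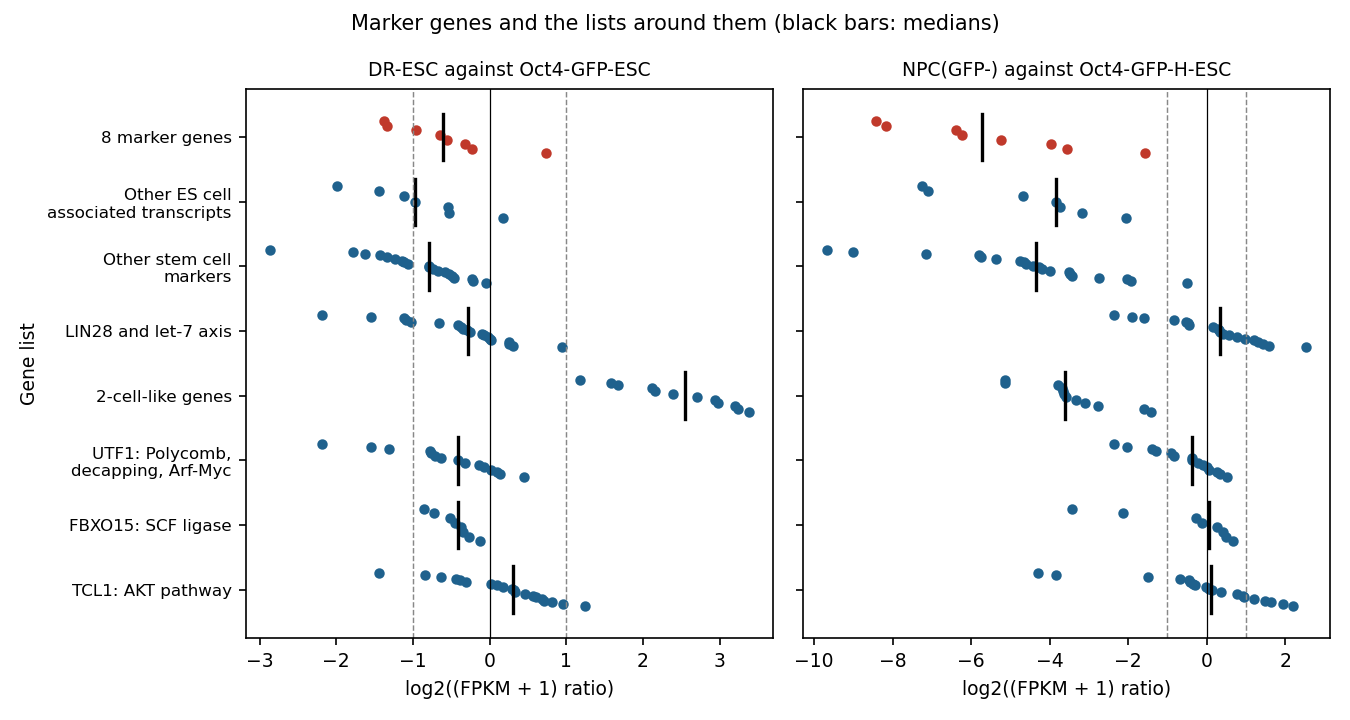
Log2((FPKM + 1) ratio) (x axis) of single genes (points) in the 8 marker genes and 7 lists around them (rows), with the median of each list as a black bar and the 2-fold size as dashed lines. In DR-ESC relative to Oct4-GFP-ESC the 2-cell-like genes lie at 1.18 to 3.38, most of them in the table only through the libraries where they are high, and in NPC(GFP-) relative to Oct4-GFP-H-ESC the 3 stem cell lists have medians of -5.73 to -3.84, while the lists of partner genes have medians of -0.37 to 0.33. Genes listed at 0 in NPC(GFP-) are placed by the pseudocount.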

How the data were processed

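Of 14 samples in the series, 4 RNA libraries were analysed, and 8 histone mark and 2 input samples were not analysed here. The authors deposited log2 values, 1 per gene and library, in a table whose name speaks of normalised FPKM. They were read as log2(FPKM + 1), since 2 to the power of the value minus 1 had at most 6 significant digits for 99.7% of non-zero values. Per the submitters' processing notes, mm10, Bowtie 0.12.8, DESeq2, HTSeq, TopHat2 2.0.9 and CASAVA 1.8 were used, with no role or order given, and the program behind the FPKM values is not given in the sources used here. Strand is not stated for the poly(A) kit, so reads of overlapping genes may be joined.

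Of 13199 rows, 19 with symbols turned into dates were left out. Every row exceeds 1 FPKM in at least 1 library. FPKM carry no read counts, so depth is unknown and a value of 0 is given as listed at 0. For 5 comparisons the log2 ratio was taken with a pseudocount of 1, leaving out genes below 1 FPKM in both libraries. Other scalings centred ratios on the median of genes that reached 5 FPKM in both libraries, equalised FPKM sums, or subtracted an abundance trend, the moving median of 401 genes sorted by mean level. Coordinates and promoters come from RefSeq, GRCm38.p6. The named genes are the 8 markers, their 3 nearest genes, the core factors Pou5f1, Sox2 and Nanog, and up to 4 leading genes per list that reached 5 FPKM in either library and, beyond that rule and chosen after their values were seen, Dux, Ezh2, Dcp1a, Dcp2, Lin28b, Zcchc11 and the members of counts of 5 or fewer. The marker genes and lists were chosen with earlier results of these data known, and the lists were set against the other scalings after their values were seen. The values of 1 listed gene are not reported here. The code was tested on simulated data. Python 3.11.15, numpy 2.4.6, pandas 2.3.3 and matplotlib 3.10.9 were used.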

Additional observations from a re-analysis of the deposited data

How the results depend on the processing

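Each count of marker genes was recomputed with pseudocounts of 0.1 and 5, no FPKM minimum or 5, and 3 other scalings. The changes of the minimum could not move any of these counts, since every marker gene exceeded 5 FPKM in each stem cell library. The counts for DR-ESC against NPC(GFP-) (8 higher, 0 lower), NPC(GFP-) against Oct4-GFP-H-ESC (0 higher, 8 lower) and DR-ESC against Oct4-GFP-H-ESC (0 and 0) were the same under all 7. For DR-ESC against Oct4-GFP-ESC the counts of 0 higher and 2 lower became 1 higher and 0 lower when ratios were centred on the median of expressed genes, with equal sums of FPKM and with the abundance trend removed. For Oct4-GFP-H-ESC relative to Oct4-GFP-ESC the count of 1 lower became 0 with a pseudocount of 5 and under the same 3 scalings. The count of 0 higher there became 1 with ratios centred on the median, 2 with equal sums (Fbxo15 and Dppa2) and 1 with the trend removed. The cause was not tested. The counts over the UTF1, let-7 and AKT lists also moved with the scaling in DR-ESC relative to Oct4-GFP-ESC. Those of the FBXO15 list stayed at 0 higher and 0 lower. The values of the lists under other scalings were added after seeing the data. Of 280 single values of marker genes, 263 kept their call, 10 lost it and 7 gained it, and 0 called values changed sign. The 263 include the values under other FPKM minimums, which could not change. No paired analysis was possible because each population has 1 library, and for the same reason no replicate could be left out. Depth is unknown, so levels below 1 FPKM, as in NPC(GFP-), cannot be ranked.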
